A study of Mus musculus with 2 samples.

Results

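Capillary endothelial cells of the temporomandibular joint (TMJ) were selected from 2 single-cell RNA-seq libraries by their own transcripts. A cell was kept when it had at least 500 detected genes and under 10% mitochondrial UMIs, where a UMI (unique molecular identifier) marks 1 captured transcript. A kept cell was gated as endothelial when it held at least 3 UMIs over Pecam1, Cdh5, Kdr and Flt1 and none of the leukocyte gene Ptprc. A gated cell was called capillary when Car4 and Timp4 together gave at least 2 UMIs and outnumbered the arterial genes Sema3g and Stmn2. This rule found 837 cells among 10109 kept cells, 621 of 4352 in the WT library and 216 of 5757 in the mutant library. Since Car4, Timp4, Sema3g, Stmn2, Ptprc and the 4 gate genes chose the cells, their levels describe the choice, and so does every contrast between capillary cells and the endothelial cells left outside.

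The study asked how a lymphatic deficiency alters the inflamed joint. Both libraries came from TMJs of female mice, whose strain the sample records give as C57BL/6 and age as 8 to 10 weeks, and whose joint capsule had been injected with complete Freund's adjuvant (CFA), an emulsion that provokes arthritis. 1 library was from WT mice and 1 from mice labelled Prox1 mutant (Prox1+/-), which carry 1 disrupted copy of Prox1 and came from another laboratory; how the allele was made is not given. Both groups therefore share the CFA, no uninjected joint is analysed here, and how many animals or joints went into each library is not stated. With 1 library per condition there is no replicate error, no test was made between the conditions, and all 95% intervals cover counting error only.

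Capillaries are the exchange vessels of the microcirculation, where a single layer of endothelium passes water, gases and nutrients between blood and tissue. In fat-using tissues their endothelium displays GPIHBP1, which holds lipoprotein lipase at the vessel wall, and takes up the released fatty acids through CD36 and FABP4. Leukocytes leave the blood mainly through postcapillary venules, which carry P-selectin, E-selectin and VCAM1, so these genes separate venules from capillaries.

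The genes that mark the cells are Car4 and Timp4. Car4 (ENSMUSG00000000805) encodes the membrane-bound carbonic anhydrase 4 and lies on chromosome 11 of GRCm38, from 84957786 to 84966044 on the plus strand. Timp4 (ENSMUSG00000030317) encodes an inhibitor of matrix metalloproteinases and lies on chromosome 6, from 115241892 to 115252205 on the minus strand. Because the choice of cells rests on these genes, the 250 bases upstream of their RefSeq starts (GRCm38.p6) are shown. Capitals mark AGGAAG or its reverse CTTCCT, a form of the ETS motif. ETS is a transcription factor family that includes the endothelial factors ERG and FLI1. Other forms of the motif were not searched and are not marked.
Car4, chr11:84957504-84957753, plus strand: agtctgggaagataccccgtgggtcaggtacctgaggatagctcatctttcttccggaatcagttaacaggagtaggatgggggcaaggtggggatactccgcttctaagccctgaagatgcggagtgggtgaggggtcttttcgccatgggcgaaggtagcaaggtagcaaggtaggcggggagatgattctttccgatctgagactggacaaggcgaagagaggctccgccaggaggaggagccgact
Timp4, chr6:115252206-115252455, minus strand: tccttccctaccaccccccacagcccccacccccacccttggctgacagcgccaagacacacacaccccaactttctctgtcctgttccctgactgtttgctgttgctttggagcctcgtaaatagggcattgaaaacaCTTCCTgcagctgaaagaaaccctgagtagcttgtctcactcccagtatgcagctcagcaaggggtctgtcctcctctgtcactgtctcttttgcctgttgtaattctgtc

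The Timp4 window held 1 copy of this ETS form, AGGAAG or its reverse, and the Car4 window held 0. Neither held the GATA motif AGATAA (reverse TTATCT) or the FOX motif TGTTTAC (reverse GTAAACA), and none of these motifs overlaps another. Of 32851 RefSeq windows of the same length, 29.5% held this ETS form, 9.99% the GATA motif and 3.17% the FOX motif, with both strands searched. Among 160 windows of the 117 genes that were at least 2-fold higher in capillary cells and had a window, the shares were 32.5%, 4.38% and 5%. A match describes the letters and is not a binding site.

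The label was checked against markers that did not enter the rule. Levels are given as counts per 1000000 UMIs (CPM) of the summed cells, with the WT library before the mutant. Gpihbp1 had 924 and 671 CPM in capillary cells and 261 and 193 CPM in the other gated cells. Cd36 had 2767 and 2121 CPM against 858 and 727, and Fabp4, the most abundant gene of the capillary marker list, had 8180 and 5871 against 4023 and 2554. The water channel Aqp1 had 2573 and 2898 CPM against 942 and 684. Tcf15, a transcription factor of fatty-acid-handling capillaries, had 290 and 259 CPM against 102 and 86.2. The marker lists went the same way: 8 of the 13 capillary list genes compared were at least 2-fold higher in capillary cells in both libraries and 0 were lower. For comparison, 163 of 9970 genes (1.63%) were at least 2-fold higher and 441 (4.42%) lower in both libraries.

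Some arterial and venous genes were lower in the cells called capillary. Of 10 arterial list genes compared 5 were at least 2-fold lower than in the other gated cells in both libraries and 0 were higher, and of 11 venous genes 7 were lower. The gap junction gene Gja5 had 6.27 CPM in WT capillary cells and 0 of 1240186 UMIs in mutant ones, against 82.8 and 47.5 CPM in the other gated cells. Selp, which encodes P-selectin, had 31.1 and 4.03 CPM against 361 and 181. Efnb2 (332 and 203 CPM against 258 and 231) and Cxcl12 (639 and 744 against 510 and 559) of the arterial list, and Ephb4 (105 and 109 against 88.4 and 88.5) of the venous list, stayed within 2-fold in both libraries. The 15 genes of the general blood endothelial list gave 0 at least 2-fold apart in both libraries, with medians of -0.01 and 0.27.

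**Figure D1:**
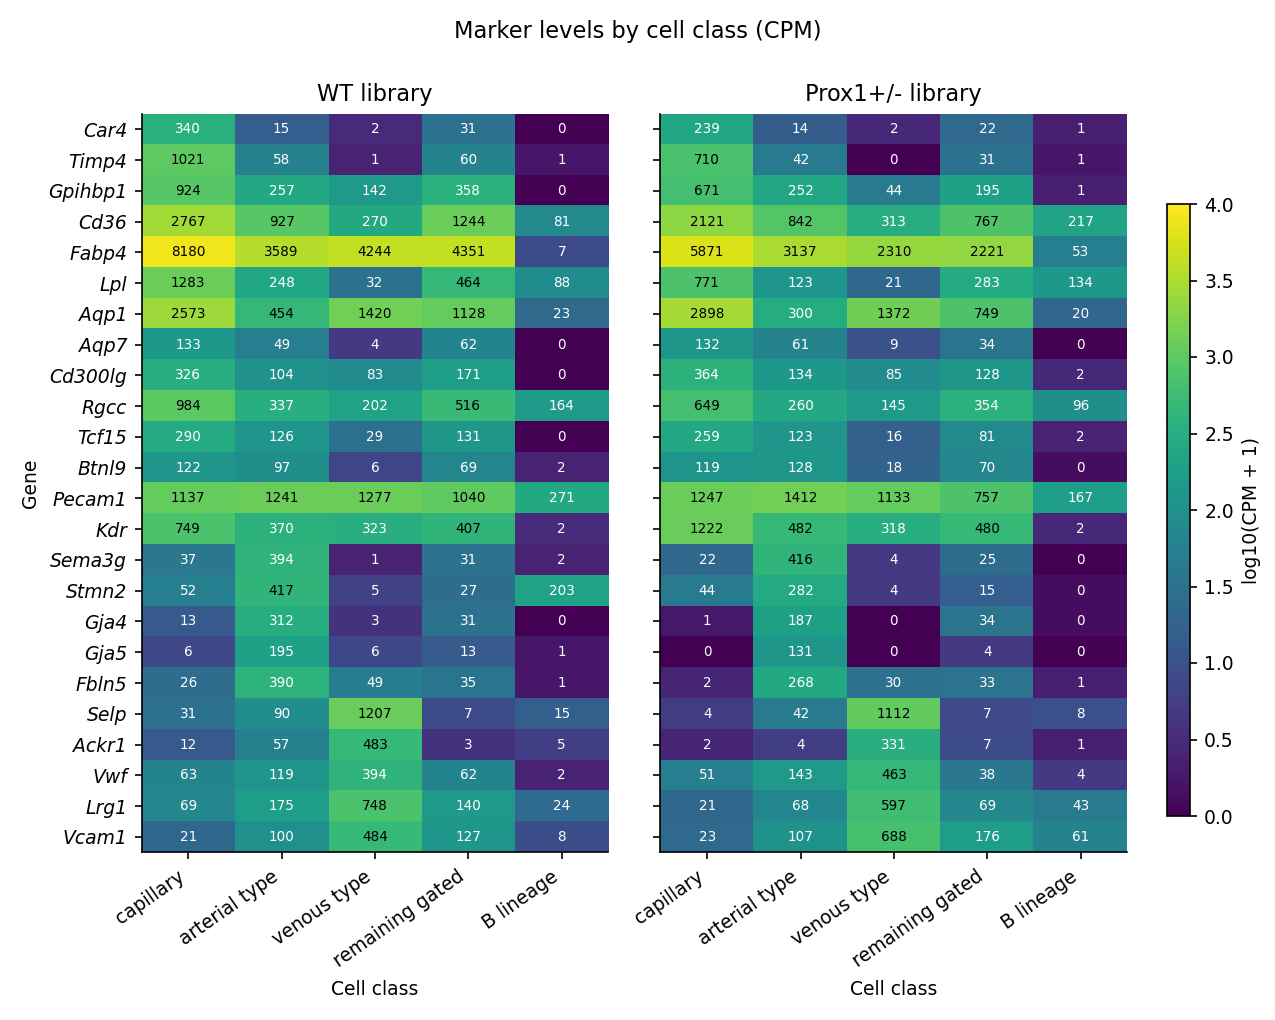
Marker levels in CPM by cell class in each library, with the colour on a log10(CPM + 1) scale. Car4, Timp4, Gpihbp1 and Lpl are highest in the capillary column, Gja4 and Gja5 in the arterial-type column and Selp and Ackr1 in the venous-type column, in both libraries; remaining gated cells are those of none of the 3 classes, the B-lineage column holds cells that are not endothelial, and Selp and Ackr1 defined the venous type.

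Droplets that also held transcripts of another cell stood apart and are described before the results. A droplet was called mixed when it had at least 50 UMIs per 10000 over 8 lists of other lineages, at least 5% erythroid UMIs, or at least 10 UMIs of Prox1 and Mmrn1. Levels of these marker genes without mixed droplets are therefore partly set by these cut-offs. By this definition, added after the data had been seen, 39 WT and 17 mutant capillary cells were mixed, 6.28% and 7.87%, and they held 14.0% and 8.42% of the capillary UMIs. Among the other gated cells the shares were 17.4% in WT and 48.4% in the mutant, so the endothelial cells left outside were far more mixed in the mutant library. The WT droplet richest in UMIs (87548) held 152 of the 163 WT capillary UMIs of Prox1 and 187 of the 188 UMIs of Mmrn1, another lymphatic gene. A second WT droplet of 36242 UMIs held 2099 of 2166 Bglap and 3063 of 3776 Col1a1 UMIs, which belong to bone and connective tissue cells. The libraries shared 10 barcodes, of which 1 was a WT capillary cell and none a capillary cell in both.

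Prox1, the gene disrupted in the mutant, is the master regulator of lymphatic identity and is not a gene of capillaries. Prox1 (ENSMUSG00000010175, chromosome 1 from 190118035 to 190170714, minus strand) had 163 UMIs over 10 WT capillary cells and 7 over 3 mutant ones, 48.7 and 5.64 CPM. Without the richest droplet of each library the counts were 11 and 3. Without mixed droplets the levels were 3.82 and 6.16 CPM (log2 0.69). The pooled log2 ratio of -3.11 was -0.44 without the droplet richest in Prox1 of each library. Other cells gave no clearer contrast: Prox1 had 28.7 and 24.9 CPM in the other gated cells and 6.30 and 4.31 CPM outside the gate. The lymphatic list summed to 266 and 95.1 CPM over all capillary cells and to 79.6 and 84.5 CPM without mixed droplets. Prox1 and Mmrn1 help to define mixed droplets, so these lymphatic values without them are partly set by the definition. Flt4, the receptor of VEGF-C, was its most abundant gene (65.1 and 60.5 CPM), and Lyve1 had 2 and 1 UMIs. Prox1 in these cells is too scarce to check the genotype label.

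The capillary share differed between the libraries. Capillary cells were 14.3% of kept WT cells (95% exact Clopper-Pearson interval 13.2 to 15.3) and 3.75% of kept mutant cells (3.28 to 4.28), which differ by -10.5 points (Newcombe interval -11.7 to -9.38). Among gated endothelial cells they were 50.2% in WT (621 of 1237) and 27.6% in the mutant (216 of 784). Arterial-type cells, defined by at least 2 UMIs of Sema3g and Stmn2 that outnumbered Car4 and Timp4, took 15.8% and 15.4% of the gated cells. Venous-type cells, with at least 2 UMIs of Selp and Ackr1 and under 2 of each other pair, took 6.63% and 4.85%. The remaining gated cells, of no class, took 27.4% and 52.2%. Of kept cells, arterial-type cells were 4.48% in WT and 2.10% in the mutant, venous-type cells 1.88% and 0.66%, and all gated cells 28.4% and 13.6%, so the mutant share of kept cells was lower for these too.

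The size of the gap depended on what it was set against. Without mixed droplets the capillary share of gated cells was 53.3% in WT and 40.4% in the mutant, a difference of -12.9 points (-18.1 to -7.60) in place of -22.7 (-26.8 to -18.4). Among cells of the 3 classes the capillary share was 69.2% in WT and 57.6% in the mutant, a difference of -11.6 points (-17.4 to -5.76), and without mixed droplets it was 70.5% and 61.0%. With each cell thinned to 2000 UMIs and the rule applied to the thinned counts, capillary cells were 11.1% and 2.63% of kept cells and 41.5% and 19.03% of gated cells. The mutant share was lower under each of these denominators. Fewer capillary cells in the joint, fewer released by the digestion and less Car4 and Timp4 per cell cannot be told apart by a rule built on those genes.

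**Figure D2:**
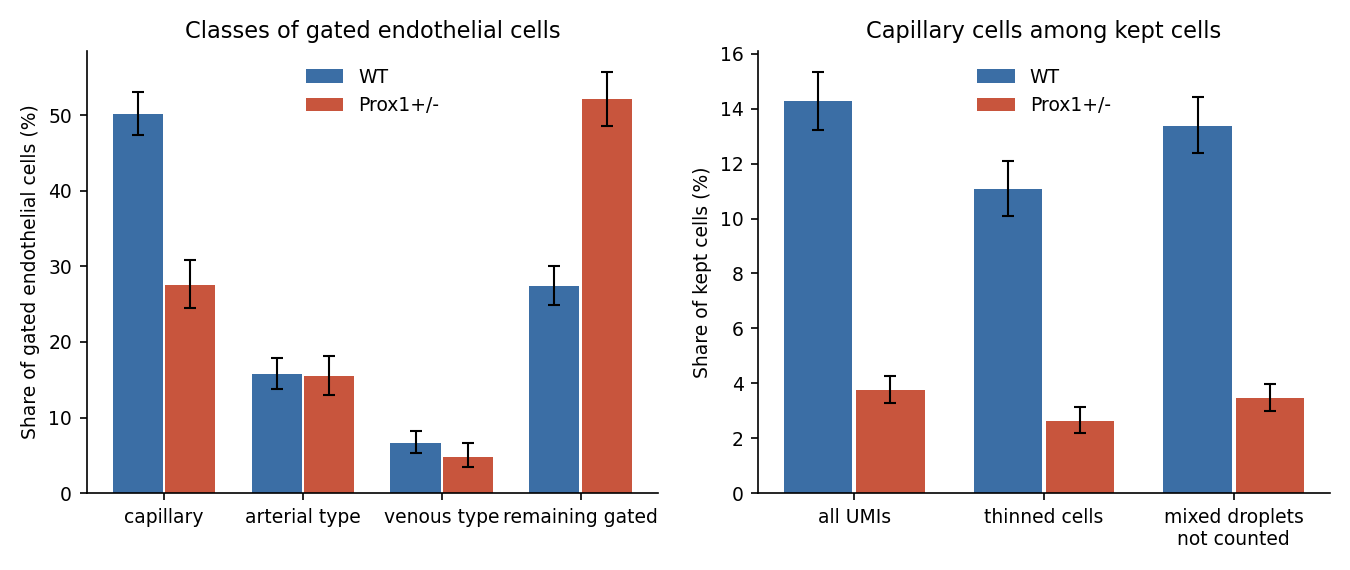
Left, classes of gated endothelial cells as a share of all gated cells (%); right, capillary cells as a share of kept cells (%), from all UMIs, from cells thinned to 2000 UMIs, and without mixed droplets in the numerator. Bars are shares and whiskers exact 95% intervals; capillary cells took 50.2% of gated cells in WT and 27.6% in the mutant, and arterial-type cells 15.8% and 15.4%.

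In WT 87 capillary cells had exactly 2 UMIs of Car4 and Timp4 and 450 had 4 or more; in the mutant these were 50 and 127. Gpihbp1, which the rule did not use, had 991 and 733 CPM in the cells with 4 or more, 708 and 520 CPM in those with 2, and 427 and 277 CPM in the 162 WT and 114 mutant gated cells with 1 UMI that fell just outside. Over all gated cells, whatever their class, Gpihbp1 had 520 and 309 CPM and Lpl 663 and 331. Both Car4 and Timp4 were detected in 65.5% of WT and 52.3% of mutant capillary cells, and Car4 alone in 4.35% and 9.26%.

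Capillary cells were shallower than arterial-type and venous-type cells and had lower median mitochondrial shares. A WT capillary cell held a median of 4007 UMIs and a mutant one 5233.5, over totals of 3347031 and 1240186 UMIs. Arterial-type cells had medians of 8029 and 7201, venous-type cells 15151 and 13130, the remaining gated cells 2878 and 3133, and all kept cells 6997 and 4848. The median mitochondrial share was 0.358% and 0.265% in capillary cells, 1.84% and 0.851% in arterial-type cells and 2.24% and 2.21% in venous-type cells. Ribosomal protein genes took 3.23% and 2.42% in capillary cells against 10.5% and 7.46% in venous-type cells. The deeper capillary sum of the WT library makes its low levels the more precise ones.

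The genes with the largest ratios of capillary over other gated cells included a BMP ligand, an alcohol dehydrogenase, a neurotrophin and a cadherin. Bmp6 (ENSMUSG00000039004, chromosome 13 from 38345107 to 38500302), a secreted ligand of the BMP family known for setting hepcidin through liver endothelium, had 1272 and 1444 CPM in capillary cells and 201 and 313 CPM outside. Adh1, the class I alcohol dehydrogenase that also oxidises retinol, had 150 and 60.5 CPM against 14.1 and 6.75. Ntf3, which encodes the neurotrophin NT-3, a growth factor of sensory neurons, had 151 and 263 CPM against 24.5 and 42.3. Cdh23, a cadherin best known from hair cells of the ear, had 169 and 276 CPM against 25.03 and 43.6. All 4 were low in arterial-type and venous-type cells too, where Bmp6 reached 149 and 297 CPM and 81.2 and 103 CPM.

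The ratios (log2 of CPM + 5, which understates low genes) were alike in both libraries for these leaders. They were 2.63 and 2.19 for Bmp6, 3.02 and 2.48 for Adh1, 2.404 and 2.50 for Ntf3 and 2.54 and 2.53 for Cdh23. The nucleoside carrier Slc28a2 (292 and 470 CPM in capillary cells), the glutamate carrier Slc1a1 (88.7 and 194), the flavin monooxygenase Fmo1 (333 and 219), the histone deacetylase Hdac9 (1410 and 1030) and the actin organizers Fhod3 (72.6 and 99.2) and Ablim3 (1271 and 1309) were also among the 20 leading genes. The others were Gm12002, Stxbp6, Car8, Prag1, 9630014M24Rik, Ncald, Lpl, Coro6, Lnx1 and Gpihbp1, and over all 20 the smaller of both ratios ran from 1.77 (Gpihbp1) to 2.53 (Cdh23).

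Some lipid uptake genes were higher in capillary cells than in the other gated cells. Of 17 lipid list genes compared 9 were at least 2-fold higher in both libraries and 0 lower, with medians of 1.02 in WT and 1.20 in the mutant against -0.02 and 0.04 over all genes. Lpl, the lipase that GPIHBP1 anchors, had 1283 and 771 CPM in capillary cells and 263 and 189 CPM outside. Pparg, the nuclear receptor that drives Cd36 and Fabp4 transcription, had 356 and 371 CPM against 129 and 159, and Cavin2, a coat protein of caveolae, had 1327 and 1314 against 610 and 513. The fatty acid transporters Slc27a1, Slc27a3 and Slc27a4 had 11, 14 and 19 UMIs in WT. Solute transport gave 2 of 12 genes higher, against 1.63% of all genes, Aqp1 and Aqp7, an aquaporin that also passes glycerol, at 133 and 132 CPM against 41.4 and 39.7.

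**Figure D3:**
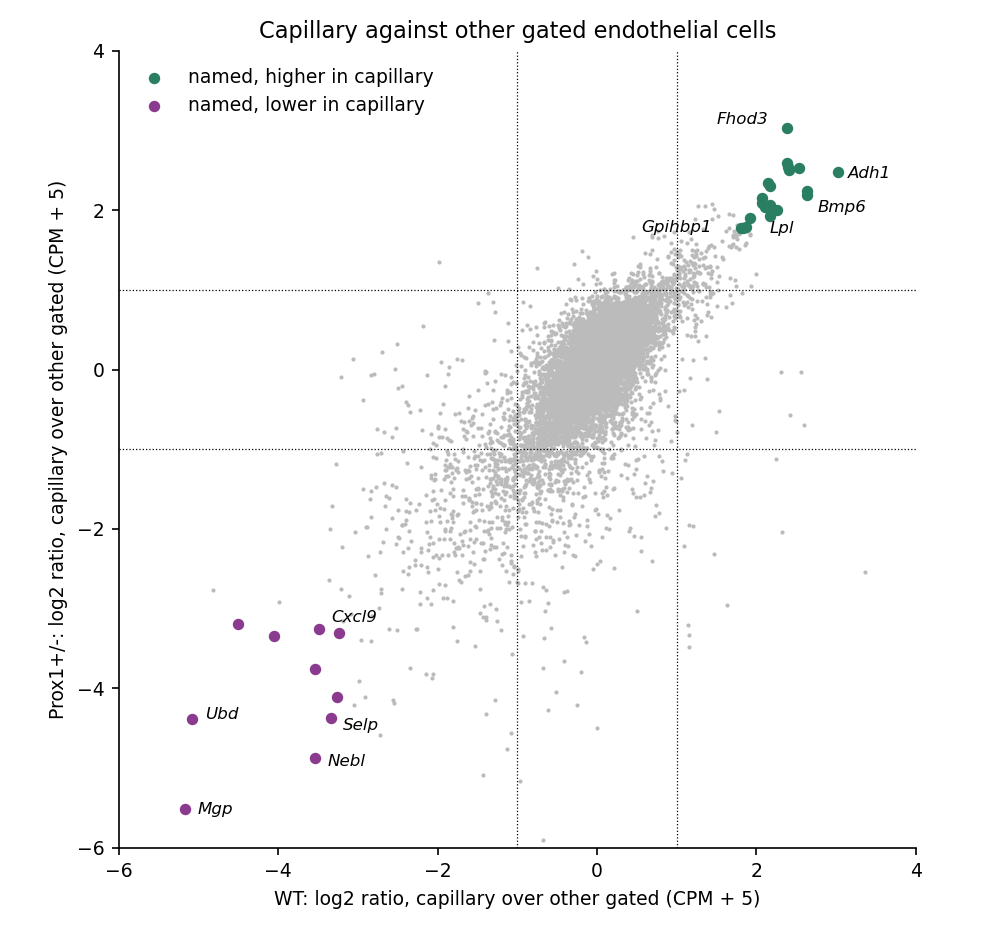
Each point is a gene, with its log2 ratio of CPM + 5 in capillary over other gated cells in WT (x axis) and in the mutant (y axis); dotted lines mark 2-fold. Genes with the largest ratios are coloured, with Bmp6 at 2.63 and 2.19 and Mgp at -5.17 and -5.52, and the genes used by the rule are left out.

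The lowest genes in capillary cells, relative to the other gated cells, were led by Mgp and Ubd. Mgp, the matrix Gla protein of large vessels, had 21.2 and 8.06 CPM in capillary cells against 939 and 593, a log2 ratio of -5.17 and -5.52. The ubiquitin-like gene Ubd had 11.7 and 12.9 CPM against 558 and 368, and the chemokine Cxcl9, which draws T cells, had 58.6 and 91.1 against 711 and 910. Nebl, Cytl1, Selp, Serpina3g and Tacr1 were also among the 10 lowest. So was Meg3, whose mutant ratio of -3.34 was 0.36 without mixed droplets. Of 13 leukocyte adhesion genes compared 8 were at least 2-fold lower in both libraries, against 4.42% of all genes, and 0 higher, with medians of -2.05 and -1.62. Vcam1 had 20.6 and 22.6 CPM against 212 and 227, and Sele, at 8 and 0 UMIs, had 2.39 and 0 CPM against 50.4 and 81.0. Pecam1, Icam2, Cd34 and Cd47 of the same list stayed within 2-fold.

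MHC class II was low in capillary cells and class I was not. Cd74, the class II invariant chain, had 86.3 and 148 CPM in capillary cells against 934 and 950 in the other gated cells. H2-Aa had 38.2 and 84.7 CPM against 217 and 358. The 5 antigen presentation genes of 19 that were at least 2-fold lower were Cd74, H2-Aa, H2-Ab1, H2-Eb1 and Ciita, the class II set and its transactivator. The class I gene H2-K1 had 1615 and 1782 CPM against 2175 and 2091, and B2m, its partner chain, 1385 and 1505 against 1587 and 1548. Plvap, the protein of fenestral and venular diaphragms, had 76.5 and 9.68 CPM against 532 and 348. Of 18 basement membrane genes 5 were lower (Mgp, Fn1, Bgn, Col15a1 and Col18a1), against the same 4.42%, while the type IV collagen gene Col4a1 had 1098 and 1076 CPM against 1306 and 1051.

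Within capillary cells the mutant was then compared with WT, gene by gene, as a ratio of CPM. Of 6429 genes with at least 100 UMIs over both libraries 98 (1.52%) were at least 2-fold higher in the mutant and 263 (4.09%) at least 2-fold lower, with a median log2 ratio of 0.06; 5.62% were past 2-fold either way. Without mixed droplets 5921 genes were compared, 76 (1.28%) were higher and 174 (2.94%) lower. Of these, 59 and 143 were also called with the mixed droplets in. Some of the lower genes, such as Acta2 (848 and 3 UMIs), Tagln (474 and 3) and Bglap2 (963 and 2), belong to smooth muscle and bone, and their UMIs sat in few WT droplets: 927 of the 963 Bglap2 UMIs were in 1. Without mixed droplets Acta2 had 3.47 and 2.64 CPM, a log2 ratio of -0.40 in place of -6.71. Smooth muscle genes such as Acta2 help to define mixed droplets, so this change is partly set by the definition.

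Capillary marker genes were measured in both libraries. Over 17 capillary list genes compared 0 were at least 2-fold higher and 1, Sgk1, lower, against 4.09% of all genes lower, with a median log2 ratio of -0.22; the 13 that the rule did not use also had a median of -0.22. Car4 had 340 and 239 CPM (log2 -0.51, interval -0.70 to -0.32) and Timp4 1021 and 710 CPM (-0.53, -0.63 to -0.42), both within the rule. Outside the rule, Gpihbp1 had a ratio of -0.46 (-0.57 to -0.35), Cd36 -0.38 and Lpl -0.73 (-0.84 to -0.63), and Lpl was past 2-fold (-1.19) when cells were thinned to 2000 UMIs. Cd300lg, a surface receptor of capillaries, had 326 and 364 CPM (0.16) and Aqp7 133 and 132 CPM (-0.01). Gpihbp1 UMIs were found in 90.5% of WT and 84.7% of mutant capillary cells, and in 80.2% and 62.6% after thinning to 2000 UMIs. In thinned B-lineage cells, which should lack the gene, they were found in 0 of 120 WT and 0 of 121 mutant cells. Taking 3 cells as the upper limit of a count of 0, not a Clopper-Pearson limit, gives detection shares of up to 2.50% and 2.48%. The median depths of the B-lineage cells were 5489 and 12861.5 UMIs.

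Of 16 lipid genes compared 1, Acsl1, was at least 2-fold higher (45.7 and 93.5 CPM) and 0 lower, against 1.52% and 4.09% of all genes, and the list median was -0.10. Among the genes of fatty acid capture Fabp4 had a ratio of -0.48 and Fabp5 -0.73. Among the caveolar genes Cav1 was at 0.31, Cav2 at 0.34, Cavin1 at 0.22 and Cavin2 at -0.01. The summed list, in which Fabp4 weighs most, had a median of 206 UMIs per 10000 in WT cells and 147 in mutant cells. Without mixed droplets Acsl1 had a ratio of 0.55.

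3 of 13 solute transport genes were at least 2-fold lower in the mutant, against 4.09% of all genes, and 5 of 12 without mixed droplets. Slco1a4, an organic anion carrier, had 194 UMIs in 6 WT cells and 14 UMIs in 1 mutant cell, 58.0 and 11.3 CPM (log2 -2.36, -3.26 to -1.58). Slc7a5, the light chain of the large neutral amino acid carrier, was found in 39 and 12 cells, at 54.7 and 13.7 CPM (-1.996). Slc2a1, the glucose transporter GLUT1, had 62.4 and 19.4 CPM (-1.69, -2.36 to -1.08). Slc3a2, the heavy chain partner of Slc7a5, had 177 and 88.7 CPM (-0.998). Mfsd2a, the lysolipid carrier, had 44 UMIs in 5 WT cells and 0 in the mutant, too few to enter the comparison of genes with 100 UMIs. In the other gated cells Slco1a4 had a ratio of -2.41, and Slc2a1 and Slc7a5 had -0.77 and -0.57 there.

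Of 12 heat shock and stress genes 7 were at least 2-fold lower and 0 higher, against 4.09% of all genes lower, with a list median of -1.09. Ddit4, which restrains mTORC1 under stress and glucocorticoids, had 149 and 24.996 CPM (log2 -2.57, -3.15 to -2.05). The inducible HSP70 gene Hspa1b had 245 and 46.8 CPM (-2.39, -2.80 to -2.004) and its neighbour Hspa1a, a near-identical copy whose reads may be divided uncertainly, 194 and 54.8 CPM (-1.82). The metallothionein genes Mt1 (102 and 36.3 CPM) and Mt2, and Hsp90aa1 and Hsph1, made up the rest. The list median was -0.53 in the other gated cells and -0.31 outside the gate.

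Immediate early genes, transcription factors and regulators switched on within minutes of a stimulus, leaned low in the mutant. All 14 compared had log2 ratios below 0, 2 of them past 2-fold and 1 without mixed droplets, with a median of -0.55. Of all 6429 genes 56.4% were above 0 and 4.09% at least 2-fold lower. Jun had 1466 and 666 CPM (-1.14, -1.25 to -1.03), Ier3 224 and 100 CPM (-1.16) and Fos 1139 and 598 CPM (-0.93), while Nr4a1 had 61.5 and 58.9 CPM (-0.06, and 0.31 without mixed droplets). Jun had -0.97 without mixed droplets. The medians were -0.27 in the other gated cells and -0.26 outside the gate. Per cell, the summed list had a median of 78.8 UMIs per 10000 in WT (quartiles 21.6 and 152) and 27.5 in the mutant (13.5 and 100), so the ranges overlapped and the mutant upper quartile lay above the WT median. Klf2, the flow-responsive factor that keeps endothelium quiescent, had 1479 and 726 CPM (-1.03, -1.13 to -0.92), and its relative Klf4 776 and 534 (-0.54). Their list, shear stress and vascular tone, had 2 of 13 genes at least 2-fold lower, against 4.09% of all genes, and 0 higher. The list median was -0.18, with 5 of 13 above 0, and -0.35 in the other gated cells. Without mixed droplets 1 of 12 was lower and the median was -0.02. Nfkbia, the NF-kB inhibitor, had 516 and 218 CPM (-1.24) and Cebpd 196 and 71.0 CPM (-1.46), and 3 of 13 NF-kB list genes were at least 2-fold lower, against 4.09% of all genes.

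**Figure D4:**
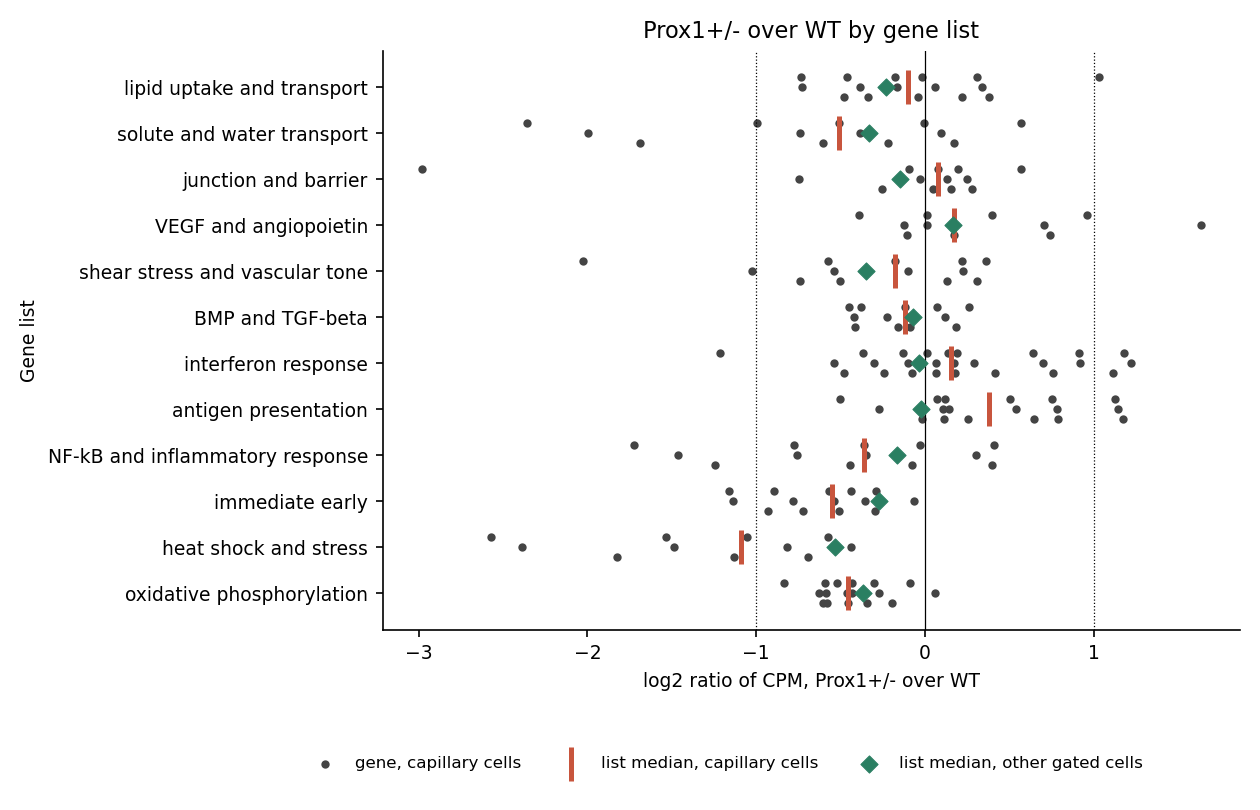
Each black point is 1 gene of a list, placed at its log2 ratio of CPM in Prox1+/- over WT capillary cells; the red bar is the list median in capillary cells and the green diamond the median in the other gated cells, and dotted lines mark 2-fold. Of the 12 lists drawn, heat shock and stress has the lowest median, -1.09 against -0.53 in the other gated cells, and antigen presentation the highest, 0.38.

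Of the guanylate-binding proteins, GTPases induced by interferon-gamma, Gbp2 and Gbp6 were at least 2-fold higher in mutant capillary cells, while Gbp2b had 265 UMIs in WT and 0 in the mutant. The grouping of Gbp2 to Gbp7, which leaves out Gbp2b, was chosen after values were seen. Gbp2 had 330 and 769 CPM (log2 1.22, 1.10 to 1.35), and Gbp6 107 and 243 CPM (1.18, 0.95 to 1.40). They were among the 3 of 26 interferon genes at least 2-fold higher, against 1.52% of all genes, but Gbp2 had 0.71 when cells were thinned to 2000 UMIs. Gbp3 (0.91), Gbp5 (0.92), Igtp (0.76) and Gbp7 (0.70) were above 0 and Gbp4 had 0.06, Gbp8 0.19 and Gbp9 0.08. In the other gated cells Gbp2 had 560 and 571 CPM (0.03) and Gbp6 177 and 239 CPM (0.44). Isg15, a ubiquitin-like modifier, was 1 of 26 at least 2-fold lower (215 and 92.7 CPM, -1.22), against 4.09% of all genes; Ifit1 had -0.30 and Ifit2 -0.48. The list median was 0.16, and Isg15 had -0.99 without mixed droplets, where 0 of 26 were past 2-fold lower.

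Of 18 antigen presentation genes compared 15 had mutant over WT log2 ratios above 0, against 56.4% of all genes. Of the 18, 3 were at least 2-fold higher, against 1.52% of all genes: H2-Q6 (109 and 246 CPM, log2 1.17), H2-Q7 (215 and 469 CPM, 1.13) and H2-Aa (38.2 and 84.7 CPM, 1.15). H2-Q6 and H2-Q7 are near-identical class I genes whose reads may be divided uncertainly. The class I genes H2-K1 (0.14) and B2m (0.12) were nearly level, while Tap1, the peptide transporter, had 0.54 and Nlrc5, the class I transactivator, 0.64. Without mixed droplets H2-Aa had 0.90. Cd274, which encodes the checkpoint ligand PD-L1 and lies outside the lists, was chosen after its values were seen: it had 266 and 650 CPM (1.29, 1.15 to 1.43, and 0.82 when cells were thinned), against 207 and 325 CPM in the other gated cells. Cd274 UMIs were found in 32.4% of thinned WT and 59.7% of thinned mutant capillary cells, and in 5.83% and 23.1% of B-lineage cells; over all UMIs the capillary shares were 46.9% and 77.3%.

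**Figure D5:**
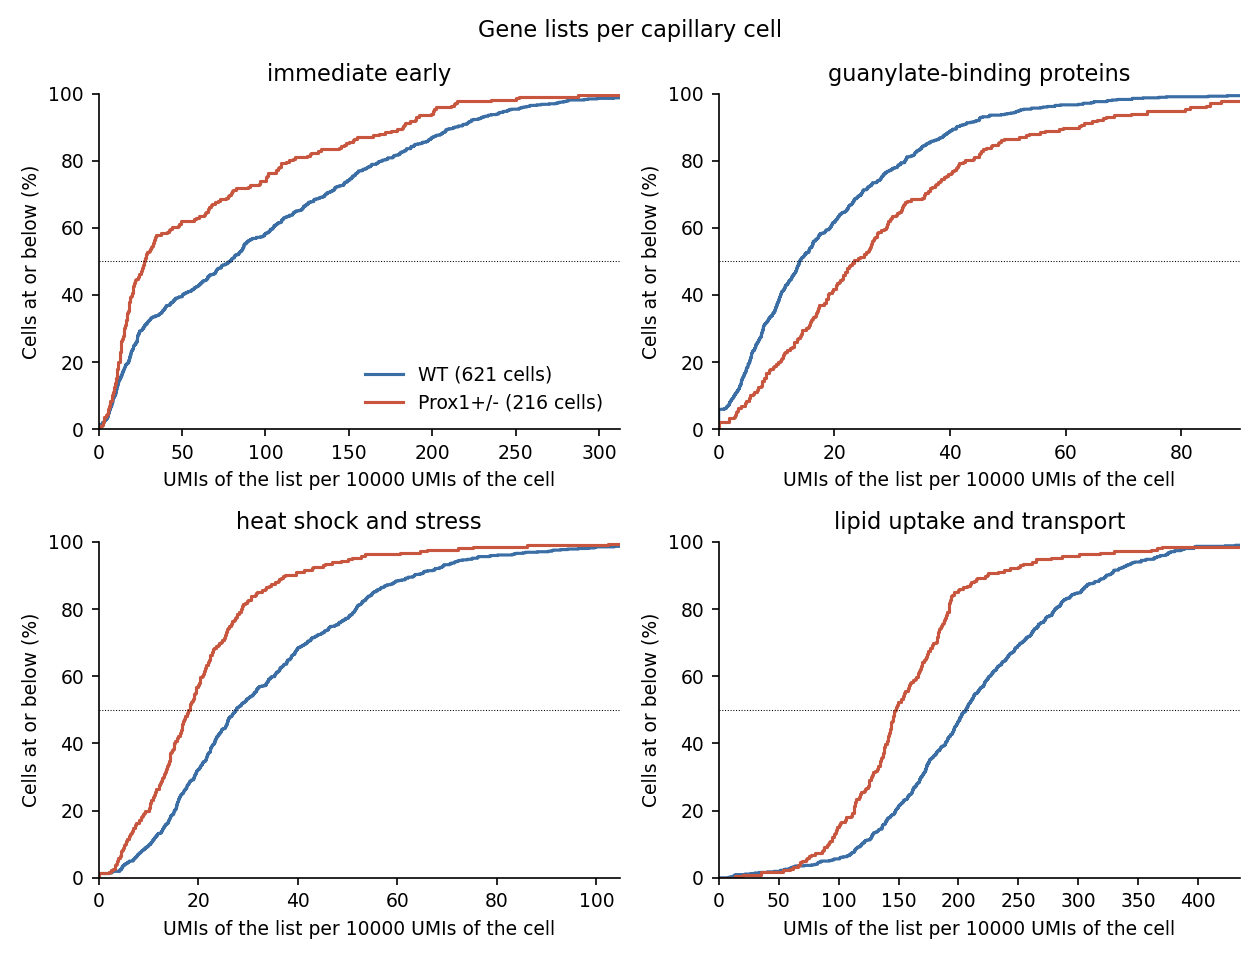
Cumulative share of capillary cells (%) at or below each summed level, in UMIs of the list per 10000 UMIs of the cell, in WT (621 cells) and Prox1+/- (216 cells); the dotted line marks 50%. The x axes end at the 99th percentile. Medians were 78.8 and 27.5 for immediate early genes, 14.0 and 23.4 for the guanylate-binding proteins Gbp2 to Gbp7, 27.6 and 18.1 for heat shock and 206 and 147 for lipid genes.

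Of 11 genes of VEGF and angiopoietin signalling 1 was at least 2-fold higher, against 1.52% of all genes. It was Angpt2, which without mixed droplets had 14.9 and 48.4 CPM (log2 1.70, 1.09 to 2.31) but too few UMIs to be compared, so that 0 of the 10 others were past 2-fold. Angpt2, the Tie2 ligand released by activated endothelium that loosens vessel walls, had 53 and 61 UMIs, 15.8 and 49.2 CPM (log2 1.64, 1.08 to 2.19), and 45.6 and 54.8 CPM in the other gated cells. Kdr, the main VEGF receptor and a gate gene, had 749 and 1222 CPM (0.71, 0.61 to 0.80), and its co-receptor Nrp1 1046 and 1750 CPM (0.74, 0.66 to 0.82). Flt1, the decoy receptor, had 4058 and 3728 CPM (-0.12). Lama4, the laminin chain of endothelial basement membrane, had 298 and 575 CPM (0.95), and 1.03 without mixed droplets. Junction genes were near level, with Cdh5 at 0.05 and Tjp1 at 0.20; Plvap, at 256 and 12 UMIs, was the only one of 13 past 2-fold (-2.98), against 4.09% of all genes lower. Cells with at least 3 UMIs over a set of cell cycle genes not named here were rare, 9 of 621 WT and 5 of 216 mutant capillary cells. Without mixed droplets these were 2 of 582 and 2 of 199.

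Among the remaining genes named by rule, 12 were higher in the mutant and had at least as high a level in mutant capillary cells as in mutant cells outside the gate. Nr1d2, a circadian repressor, had 39.1 and 135 CPM (log2 1.79, 1.45 to 2.13), and Apol10b 79.5 and 202 CPM (1.35), with 1.51 and 4.14 CPM outside the gate. Pde10a, a cyclic nucleotide phosphodiesterase, had 71.1 and 194 CPM (1.45), and Sema6d, a transmembrane semaphorin, 61.2 and 160 CPM (1.38). Hsd17b12, of fatty acid elongation, had 36.2 and 117 CPM (1.69), of which 47 of 145 mutant UMIs lay in 1 droplet. The Hsd17b12 ratio was 1.08 without mixed droplets, 1.10 in cells of 3000 to 20000 UMIs and 1.68 in cells thinned to 2000 UMIs. 9330175M20Rik (1.98), Immp2l (1.59), Nim1k (1.49), Slc22a23 (1.42, and 0.77 when cells were thinned to 2000 UMIs) and Angpt2 were also in this group. Cfd and Scd1, adipocyte genes, had the highest ratios, and 1 mutant droplet held 365 of 380 and 493 of 502 UMIs. Without it Cfd had 15 UMIs against 0 and Scd1 a log2 ratio of 1.14.

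At the low end Gbp2b (ENSMUSG00000040264, chromosome 3 from 142594847 to 142619179), a close neighbour of Gbp2, had 265 UMIs over 124 WT capillary cells and 0 in the mutant. In the other gated cells Gbp2b had 36.4 and 1.04 CPM (-5.13). Set against a floor of 3 UMIs in the mutant capillary cells, it was at least 32.7-fold higher in WT; reads of the similar genes may be divided uncertainly. Spock2, a matrix proteoglycan, had 139 and 12.9 CPM (-3.43, -4.24 to -2.71) with 170 of 464 WT UMIs in 1 droplet. The Spock2 ratio was -1.64 by the mean over cells of CPM, -1.28 when cells were thinned to 2000 UMIs and -2.05 in cells of 3000 to 20000 UMIs. Sema3a had 64.2 and 3.23 CPM (-4.32) and Lef1 43.6 and 4.03 (-3.44), with 103 of 215 and 83 of 146 WT UMIs in 1 droplet. Sema3a had -2.17 by the mean over cells of CPM, and in the other gated cells it was higher in the mutant (1.56). Lef1 was found in 12 WT and 4 mutant capillary cells, 1.93% and 1.85%, and its ratio was -0.48 by the mean over cells of CPM. Meis2, Clca3a1, Chrm3, Nrxn3, Cdh2, Gm26802 and Slit2 were also named, each with 1 to 6 UMIs in the mutant. The richest WT droplet of each gene held 78 of 140 Meis2 UMIs, 101 of 119 of Clca3a1 and 78 of 108 of Chrm3. For Nrxn3 it held 150 of 166, for Cdh2 82 of 153, for Gm26802 49 of 165 and for Slit2 72 of 161. With at least 4 UMIs of Car4 and Timp4 required, the ratio was -2.52 for Meis2 and -1.24 for Chrm3. Without mixed droplets the ratio was 0.02 for Nrxn3, 0.93 for Slit2, -0.66 for Cdh2 and -1.24 for Clca3a1.

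Transcripts of other cells reached the capillary droplets unequally. Neutrophil list genes summed to 335 CPM in WT capillary cells and 1002 CPM in mutant ones, against 19082 and 26542 CPM outside the gate, and 5 of 5 compared were at least 2-fold higher, against 1.52% of all genes. Without mixed droplets they summed to 362 and 828 CPM, and 3 of 5 were past 2-fold. S100a9 was the most abundant (133 and 402 CPM). Ltf had 22.4 and 105 CPM (log2 2.23). With no condition on Ptprc the ratio was 0.49 for Ltf and 0.70, in place of 2.11, for Arhgap15, both within 2-fold. Hist1h2ap, Hist1h4d and Arhgap15 were also named on the high side, and Tpm2, Ibsp and Sema3d on the low side, among genes higher outside the gate. The airway and gland gene Bpifb1 had 0 and 200 UMIs in capillary cells and 0.176 and 2478 CPM outside the gate. The erythroid list summed to 14635 and 17551 CPM and to 860 and 1433 CPM without mixed droplets, and the macrophage list to 405 and 380 CPM. The fibroblast list summed to 2180 and 193 CPM, and to 162 and 151 CPM without mixed droplets. Pericyte genes summed to 99.8 and 24.996 CPM, adipocyte genes to 24.2 and 391, and Schwann cell genes to 276 and 53.2. Without mixed droplets these sums were 18.8 and 21.1, 2.78 and 22.01, and 60.1 and 42.3 CPM. T cell genes summed to 4.48 and 12.9 CPM and muscle fibre genes to 30.2 and 24.2. B cell genes summed to 1347 and 1529 CPM, of which Ebf1, also an endothelial gene, made 1330 and 1520, and Ms4a1 was at 0 in both. The part of these transcripts in the ratios above was not tested beyond the values without mixed droplets.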

How the data were processed

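The 2 libraries were made from TMJ tissue with 10x Genomics droplets; the sample records name a 3′ v2 kit and collagenase I with dispase II, the study's methods a v3.1 kit and collagenase P. Per the submitters' processing notes, the authors used mm10 (GRCm38) and Cell Ranger 7.0.1; the deposited values are whole UMI counts, not normalized, over 32285 genes. The libraries held 53517206 UMIs over 5709 WT barcodes and 62446987 over 7846 mutant barcodes. Whether intronic reads were counted is not given in the sources used here.

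The rule, the cell classes and the gene lists were chosen with earlier results of these data known. Raw UMIs were summed over the capillary cells of each library and scaled to 1000000. Intervals at 95% are Poisson for CPM, Clopper-Pearson for shares, Newcombe for differences and exact conditional binomial for ratios. A 0 was set to 3 UMIs as a floor, and called means at least 2-fold. PCR copies are removed by UMIs, but cells of 1 library are not replicates. Ratios between cell classes used a pseudocount of 5 CPM. Named genes were Prox1, list genes (up to 6 examples by level or ratio), the 20 highest and 10 lowest against other gated cells, and the 12 highest and 12 lowest mutant over WT ratios that stayed past 2-fold without the richest droplet, among genes whose CPM in capillary cells, in the library where it is higher, was at least that outside the gate, plus 5 each of the rest. Doublets were scored with Scrublet in scanpy 1.11.5; its automatic threshold called 0, so the highest 239 WT and 462 mutant scores were used, and doublets were removed only in an alternative. Positions come from GENCODE M21, which matched 32235 of 32285 gene IDs, and upstream sequences from RefSeq (GRCm38.p6). Python 3.11.15 with scipy 1.17.1 was used. The calculation of the ratios was run on simulated Poisson counts. Those counts lack the clumping of UMIs in single droplets seen here, so the run does not cover it. Some genes that the rule or the lists hold are not reported here.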

Additional observations from a re-analysis of the deposited data

Results flagged for a closer look

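Outside the cell filter, 10 WT barcodes of 1357 and 4 mutant barcodes of 2089 met the UMI rule for capillary cells, and they enter no comparison. Of these, 9 and 2 had under 500 genes, and 1 and 2 had 10% or more mitochondrial UMIs.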

How the results depend on the processing

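The capillary share was lower in the mutant than in WT under each setting tried. In percent of kept cells, WT before mutant, it was 12.2 and 3.03 when 200 genes sufficed and mitochondrial UMIs could reach 20%, 17.4 and 5.14 when 1000 genes and under 5% were required, 16.5 and 5.04 with at least 1 UMI of Car4 and Timp4, 10.3 and 2.21 with at least 4, 15.3 and 4.60 with no condition on Ptprc, and 11.1 and 2.63 thinned to 2000 UMIs. In percent of gated cells it was 55.2 and 32.9 with at least 1000 genes, 58.1 and 37.0 with at least 1 UMI, 36.4 and 16.2 with at least 4, 53.1 and 35.5 with a gate of at least 6 UMIs, 45.1 and 20.2 with no condition on Ptprc, 41.5 and 19.03 thinned, and 53.3 and 40.4 without mixed droplets.

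Counts of genes past 2-fold in the mutant moved with the setting. Thinned cells gave 21 higher and 78 lower, a minimum of 50 UMIs 183 and 460, and a minimum of 200 UMIs 52 and 155. These settings also changed which genes were compared. The numbers compared are not given, so these counts cannot be read as shares. Lower genes numbered 174 without mixed droplets, 159 by the mean over cells, 124 of 5559 genes compared in cells of 3000 to 20000 UMIs, and 158 of only 993 genes compared in cells under 3 other-lineage UMIs per 10000, of which there were 50 in WT and 3 in the mutant. Higher genes numbered 76, 134, 69 and 82 in the same order, so the mean over cells gave 134 higher against 159 lower. A pseudocount of 20 CPM gave 91 genes higher and 162 lower in capillary cells in both libraries. Leaving out mixed droplets gave 126 and 345 there, in place of 163 and 441, and the number compared is not given. Hist1h4d turned to -0.040 with doublets removed and Slc22a23 to -2.24 in cells under 3 other-lineage UMIs per 10000. Among single-gene ratios over these settings, 137 values moved, 2 reversed and 584 did neither; among shares and counts of genes, 38 moved and 42 did not. The causes were not tested. Settings on mixed droplets and the 3 vessel classes were chosen after seeing the data. No paired analysis was possible because each condition has 1 library, and for the same reason no library could be left out. Genes under 100 UMIs were not compared, and the mutant sum of 1240186 UMIs limits low genes most.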

Other observations

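Rpl29, a ribosomal protein gene with many processed copies in the genome, was chosen after its values were seen. It had 1366 UMIs over 369 WT capillary cells and 10 UMIs over 10 mutant ones, 408 and 8.06 CPM (log2 -5.66, -6.73 to -4.78). It had 599 and 13.2 CPM in the other gated cells and 588 and 14.3 CPM outside the gate, so the gap was not particular to capillary cells. Its gene lies on chromosome 9 from 106429454 to 106431568, and reads from its copies may be divided uncertainly.

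Of 17 oxidative phosphorylation genes 0 were past 2-fold in mutant over WT capillary cells, against 5.62% of all genes, and the median log2 ratio was -0.46. The median was -0.36 in the other gated cells and -0.28 outside the gate. Cox4i1, the most abundant of the list, had 326 and 183 CPM (-0.83). The hypoxia and glycolysis list had a median of -0.17, with 1 of 13 at least 2-fold lower (Slc2a1), against 4.09% of all genes, and Pfkfb3, an activator of endothelial glycolysis, at 166 and 289 CPM (0.79). Against 5.62% of all genes past 2-fold either way, Notch genes gave 0 of 8, with Rbpj at 55.9 and 105 CPM (0.91), and BMP and TGF-beta genes 0 of 13, with Bmp6 at 0.18.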
